A study of Mus musculus with 5 samples.

Results

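The genes described here are 39 mouse genes of the type I interferon response, chosen by symbol as members of this pathway. All 39 were found among the 35275 genes of the deposited table. They were measured by RNA sequencing in T cell populations sorted from spleens of wild-type C57BL/6 mice aged 3 months. CD4 Treg (2 libraries) are regulatory T cells of the CD4 lineage, CD8 Treg (1 library) are the CD8 population that the study names regulatory, and CD49lo (2 libraries) is the remaining group, which by elimination is the CD8 effector-like population of the series' design. Lymphocytes were enriched for CD8 cells and then sorted by flow cytometry. The staining used to gate each population is not given in the sources used here, and neither is the sex of the mice. The labels leave the animals behind the replicates unnamed. P-values therefore cover only the spread between these libraries, which may be technical.

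Type I interferons, the interferon-alpha and interferon-beta proteins, bind a receptor made of IFNAR1 and IFNAR2, whose kinases JAK1 and TYK2 signal through STAT2. In the nucleus STAT2 acts in a complex with IRF9 that binds the interferon-stimulated response element (ISRE) upstream of its target genes, and IRF7 amplifies the loop. The products sense foreign nucleic acid, block viral translation and replication, or, like USP18, damp the receptor again. In T cells the pathway also runs at a basal level in the absence of infection, and many of its targets respond to interferon-gamma as well.

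The libraries held between 5441444 and 8354971 reads in genes, and 1 read in a transcript of 1 kb corresponds to 0.120 to 0.184 RPKM, the unit of the levels below, which divides reads by transcript length and library size. Lineage markers followed the labels. Foxp3, the factor that defines CD4 regulatory T cells, stood at 146 RPKM in both CD4 Treg libraries and at 0.387 to 1.66 RPKM in the others, while 3 CD8 T cell markers summed to 31.6 to 36.6 RPKM in CD4 Treg and to 804 to 1102 RPKM elsewhere. Xist, the X-inactivation transcript of female cells, was at 35.5 and 27.2 RPKM in CD4 Treg and at 0 to 0.0834 RPKM in the other libraries. The Y-linked Ddx3y showed the reverse pattern, so lineage and the sex of the source animals cannot be told apart in any comparison with CD4 Treg. Ribosomal protein genes took 12.5% of reads in the CD8 Treg library and 8.17% to 9.36% in the others.

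The starting regions of the members show what sequence they share. RefSeq promoters of build GRCm38.p6, 250 bases before to 50 after the transcript start, were at hand for 28 of the 39 members. The ISRE core, searched on both strands as GAAA, any 2 bases and GAAA, was found in 13 of those 28 (46.4%), against 1079 of 27025 genes (3.99%). The sequences below are printed as examples from members described in the comparisons that follow. Isg15 (chr4:156200769-156201068, minus strand) carries 3 overlapping copies, Ifit1 (chr19:34640639-34640938, plus strand) and Ifit3 (chr19:34583279-34583578, plus strand) carry 2 separate copies each on the opposite strand, and Apol9a (chr15:77411031-77411330, minus strand) carries 2 overlapping copies. Samhd1 (chr2:157135047-157135346, minus strand) holds no match in this window. Capitals mark matches to the core on either strand, read 5′ to 3′ along the gene.
Isg15: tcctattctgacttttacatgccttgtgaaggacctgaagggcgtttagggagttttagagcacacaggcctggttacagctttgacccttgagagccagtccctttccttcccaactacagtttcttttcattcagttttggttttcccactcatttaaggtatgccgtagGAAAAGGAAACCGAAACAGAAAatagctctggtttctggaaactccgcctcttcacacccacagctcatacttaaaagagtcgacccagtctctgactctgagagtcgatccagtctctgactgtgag
Ifit1: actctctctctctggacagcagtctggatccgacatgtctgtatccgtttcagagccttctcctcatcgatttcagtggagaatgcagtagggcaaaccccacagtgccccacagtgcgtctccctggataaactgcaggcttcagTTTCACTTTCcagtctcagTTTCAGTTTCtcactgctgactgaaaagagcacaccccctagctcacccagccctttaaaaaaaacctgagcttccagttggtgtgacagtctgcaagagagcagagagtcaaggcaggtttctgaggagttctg
Ifit3: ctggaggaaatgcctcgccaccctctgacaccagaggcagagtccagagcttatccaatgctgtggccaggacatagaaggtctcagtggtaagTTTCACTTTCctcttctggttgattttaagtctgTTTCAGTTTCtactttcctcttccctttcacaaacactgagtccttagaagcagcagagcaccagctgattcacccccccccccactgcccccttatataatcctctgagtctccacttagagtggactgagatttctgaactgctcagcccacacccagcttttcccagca
Apol9a: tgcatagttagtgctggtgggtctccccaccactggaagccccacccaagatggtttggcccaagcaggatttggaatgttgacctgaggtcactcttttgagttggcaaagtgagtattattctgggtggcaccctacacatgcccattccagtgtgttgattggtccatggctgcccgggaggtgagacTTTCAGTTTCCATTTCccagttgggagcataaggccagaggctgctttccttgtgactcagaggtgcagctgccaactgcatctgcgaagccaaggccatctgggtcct
Samhd1: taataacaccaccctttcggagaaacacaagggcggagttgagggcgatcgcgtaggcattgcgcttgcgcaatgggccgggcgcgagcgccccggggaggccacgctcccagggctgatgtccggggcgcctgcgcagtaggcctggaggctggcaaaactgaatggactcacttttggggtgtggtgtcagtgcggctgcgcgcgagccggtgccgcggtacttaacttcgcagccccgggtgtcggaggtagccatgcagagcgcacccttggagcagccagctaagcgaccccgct

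In Isg15 the matches began 78, 72 and 66 bases before the start, and in Ifit1 104 and 85 bases before it. The Apol9a and Apol9b promoters were identical over 278 of 278 bases at an offset of 22, including the element. A match is a description of letters and not of binding. The shorter STAT dimer motif, searched as TTCNNNGAA, occurred in 7 of the 28 member promoters (25%) against 9.55% of all promoters.

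**Figure D1:**
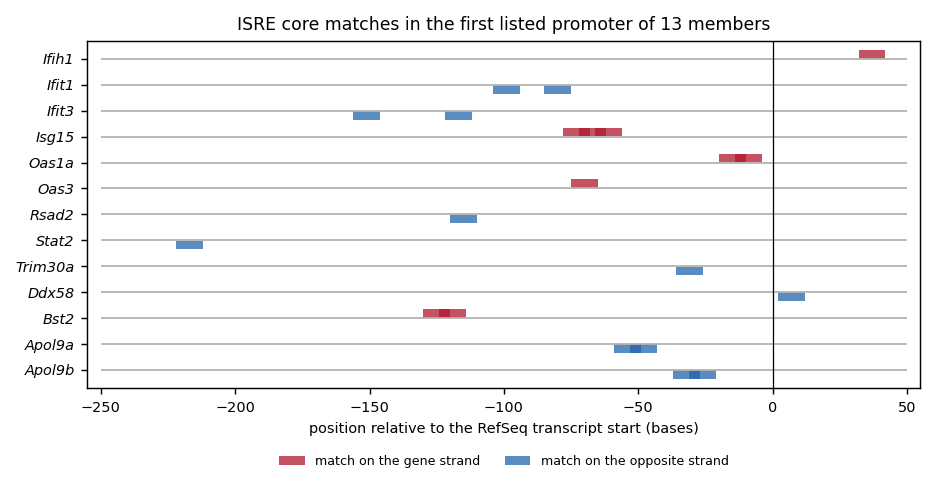
Position of ISRE core matches in the first listed promoter of the 13 members that have one, in bases from the RefSeq transcript start, coloured by the strand of the match. Most matches lie before the start, and the pairs in Oas1a, Bst2, Apol9a and Apol9b and the triplet in Isg15 overlap.

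CD4 Treg against CD49lo asks how the regulatory CD4 lineage differs from the effector-like cells. Of the 39 members, 17 (43.6%) were higher in CD4 Treg, where 9.45% of all 13298 tested genes were higher, and 1 (2.56%), Mx1, was lower, where 12.8% of all genes were lower (limma, Benjamini-Hochberg adjusted p under 0.05). The median log2 fold change of the members was 0.64 and that of all tested genes was -0.03, and 36 of 39 members had a positive value. Both CD4 Treg libraries lay above both CD49lo libraries for 29 members (74.4%, against 28.0% of all genes). Such counts of library order use RPKM divided by each library's scaling factor, as the fit does; on the RPKM printed here the count was 27 (69.2%, against 26.5%), without Stat2 and Dhx58. The higher members were Irf9, Ifih1, Zbp1, Isg15, Usp18, Ifit1, Oas1a, Samhd1, Adar, Isg20, Parp14, Dtx3l, Mx2, Rtp4, Ifi27l2a, Apol9a and Apol9b. Fold changes are on the scale of log2(RPKM + 0.5), which understates changes of low genes, and in bulk libraries fewer expressing cells and less RNA per cell cannot be told apart. All 39 members passed the filter on low values, but 33 of them reached its level in every library, and Apol9a and Apol9b reached it in CD4 Treg only. These 2 entered the test through the group where they are high, so their direction was set by the filter. They are also among the 36 positive members and in the counts of 29 and 27 by library order. Without them 15 of 37 members (40.5%) were higher.

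**Figure D2:**
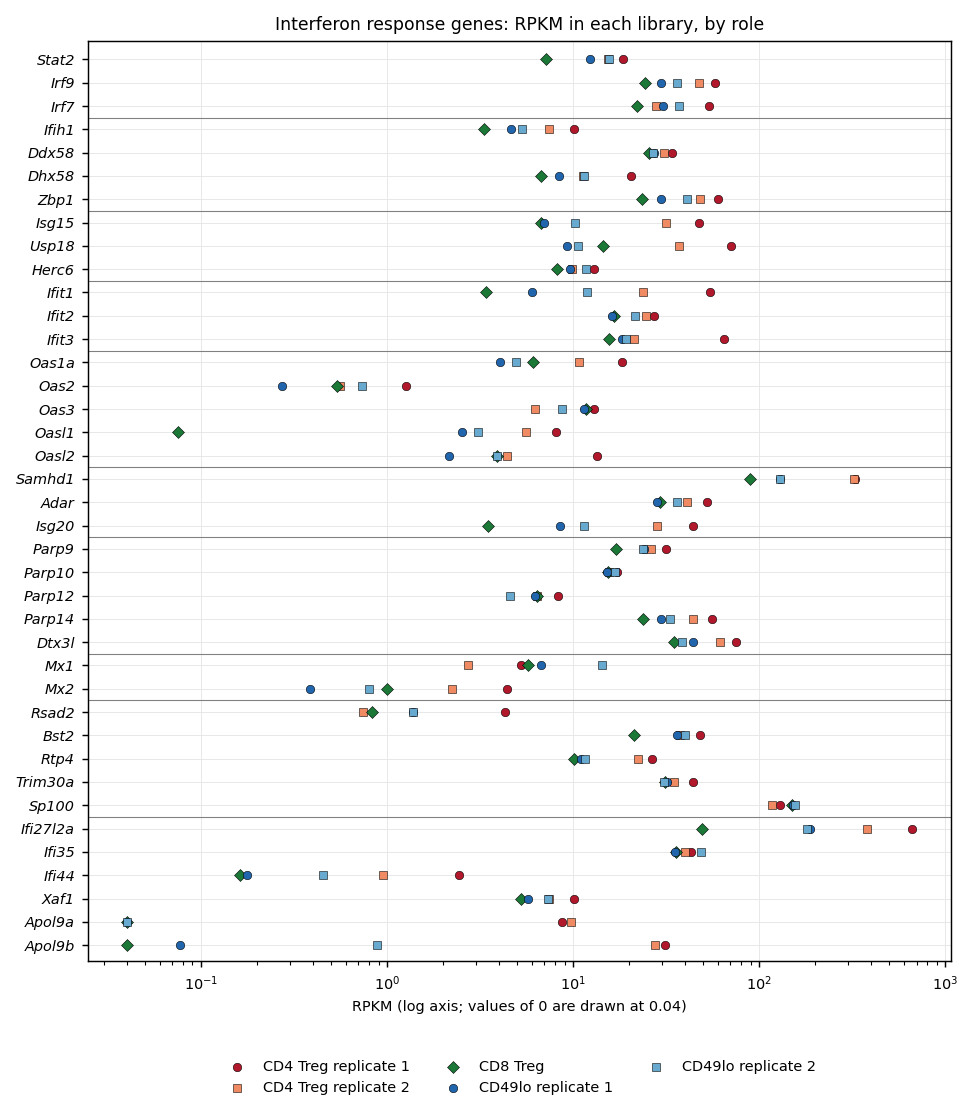
Level of each member in each of the 5 libraries, in RPKM on a log axis, with values of 0 drawn at the left edge. CD4 Treg replicate 1 is the highest library for 35 of 39 members (89.7%, against 18.6% of all tested genes). The CD8 Treg library is the lowest for 23 (59.0%, against 30.7%).

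The transcription factor subunits were present in every library. Irf9 (chr14:55603571-55610030, mm10), the DNA-binding subunit of the ISRE complex, was at 57.8 and 47.4 RPKM in CD4 Treg and at 29.6 and 35.9 RPKM in CD49lo. The groups did not overlap, and the log2 fold change was 0.70 ± 0.14 (SE, n = 2 against 2, limma adjusted p = 0.00641). Stat2, its partner, was at 18.5 and 15.3 RPKM in CD4 Treg against 12.3 and 15.7 in CD49lo, so that these levels overlapped, with a log2 fold change of 0.29 ± 0.17 (adjusted p = 0.265). Irf7, the amplifying factor, was at 54.0 and 27.8 RPKM in CD4 Treg and at 30.4 and 37.0 in CD49lo. The CD4 Treg libraries lay on either side of the CD49lo pair, the log2 fold change was 0.23 ± 0.27 (adjusted p = 0.591), and without CD4 Treg replicate 1 it was -0.25.

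Among the 4 nucleic acid sensors, Ifih1 and Zbp1 were higher in CD4 Treg. Ifih1, which encodes the RNA sensor MDA5, was at 10.1 and 7.46 RPKM against 4.62 and 5.29, a log2 fold change of 0.78 ± 0.20 (adjusted p = 0.0227). Zbp1, the sensor of Z-form nucleic acid, was at 59.8 and 48.0 RPKM against 29.7 and 41.0, with 0.64 ± 0.17 (adjusted p = 0.0237). Both groups of libraries were separate for these genes. Ddx58, which encodes RIG-I, was at 34.0 and 30.9 RPKM against 27.2 and 26.8, and Dhx58, its regulator LGP2, at 20.5 and 11.3 against 8.44 and 11.4. Neither passed the test.

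In the ISG15 pathway, the modifier and its protease were both higher in CD4 Treg. Isg15 (chr4:156199424-156200818), a ubiquitin-like modifier, was at 47.3 and 31.6 RPKM in CD4 Treg and at 6.97 and 10.3 in CD49lo, a log2 fold change of 2.15 ± 0.32 (adjusted p = 0.00117). Usp18 (chr6:121245906-121270916), the protease that removes ISG15 and restrains the receptor, was at 70.3 and 36.9 RPKM against 9.26 and 10.6, with 2.33 ± 0.28 (adjusted p = 0.000302). For both genes the lower CD4 Treg library was well clear of the higher CD49lo library. Herc6, the mouse ISG15 ligase, was at 12.9 and 9.85 RPKM against 9.61 and 11.7, which overlapped. Ube2l6, the ISG15-conjugating enzyme and not among the 39, was at 16.2 and 12.8 RPKM against 2.69 and 7.42, a log2 fold change of 1.60 ± 0.42 (adjusted p = 0.0231).

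Of the IFIT proteins, which bind viral RNA and block its translation, Ifit1 (chr19:34640871-34650009) was higher. Its levels were 54.4 and 23.7 RPKM in CD4 Treg and 5.99 and 11.8 in CD49lo, a log2 fold change of 2.05 ± 0.39 (adjusted p = 0.00448). Ifit2 was at 27.2 and 24.6 RPKM against 16.1 and 21.5, and Ifit3 at 64.9 and 21.2 against 18.4 and 19.2. Neither was called, although both pairs were separate. The 3 genes lie together on chromosome 19, and 51.2% of the 50-base words of Ifit3 transcripts are shared with Ifit3b, so reads of these copies may have been split between them.

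The OAS enzymes make the second messenger that activates RNase L. Oas1a was at 18.2 and 10.7 RPKM in CD4 Treg and at 4.06 and 4.93 in CD49lo, a log2 fold change of 1.56 ± 0.30 (adjusted p = 0.0051). It was the called member of this family, and it shares 57.6% of its 50-base words with Oas1g and Oas1b. Oasl1, which restrains translation of Irf7, was at 8.13 and 5.56 RPKM against 2.52 and 3.07, separate groups, with 1.16 ± 0.38 (adjusted p = 0.0557). Oas2, Oas3 and Oasl2 were not called, and Oas3 levels of 12.9 and 6.23 RPKM enclosed the CD49lo levels of 11.5 and 8.71.

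All 3 other nucleic acid enzymes were higher in CD4 Treg. Samhd1 (chr2:157097533-157135265), a hydrolase of deoxynucleotides, was at 325 and 323 RPKM in CD4 Treg and at 130 in both CD49lo libraries, a log2 fold change of 1.34 ± 0.09 (adjusted p = 1.26e-05). The replicates of each group nearly coincided. Isg20 (chr7:78913424-78920362), an exonuclease of single-stranded RNA, was at 44.0 and 28.1 RPKM against 8.48 and 11.5, with 1.81 ± 0.30 (adjusted p = 0.00212). Adar, which deaminates adenosine in double-stranded RNA, was at 52.5 and 41.1 RPKM against 28.2 and 36.3, with 0.56 ± 0.15 (adjusted p = 0.0279).

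Of the 5 genes for ADP-ribosyl transferases and their partner, Parp14 and Dtx3l were higher. Parp14, a transferase of macrodomain type, was at 55.7 and 44.2 RPKM against 29.5 and 33.1, a log2 fold change of 0.68 ± 0.13 (adjusted p = 0.00473). Dtx3l, a ubiquitin ligase that pairs with PARP9, was at 74.9 and 61.7 RPKM against 44.1 and 38.2, with 0.75 ± 0.13 (adjusted p = 0.00314). Both groups were separate for these genes. Parp9, Parp10 and Parp12 were not called. Parp9 and Dtx3l overlap by 0.682 kb on opposite strands, and as the sources used here do not say whether strand was counted, reads of the overlap cannot be assigned.

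The MX GTPases, which block viral nucleocapsids, moved in opposite directions. Mx1 (chr16:97447035-97462907) was at 5.24 and 2.71 RPKM in CD4 Treg and at 6.75 and 14.2 in CD49lo, a log2 fold change of -1.24 ± 0.37 (adjusted p = 0.0388). Mx2, annotated in the table as a polymorphic pseudogene, was at 4.43 and 2.23 RPKM against 0.387 and 0.800, with 1.78 ± 0.45 (adjusted p = 0.0189). Both pairs of libraries were separate. C57BL/6 mice are known to carry a defective Mx1 allele. The Mx1 call was lost with an added value of 1 (adjusted p = 0.0556) and in each of the 4 fits that left out a library (adjusted p = 0.0682 to 0.451).

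Rtp4, a chaperone of membrane receptors, was the called gene among 5 other antiviral effectors, at 26.6 and 22.4 RPKM against 11.0 and 11.6, with a log2 fold change of 1.10 ± 0.20 (adjusted p = 0.00405). Bst2, which encodes the virion-retaining protein tetherin, was at 47.9 and 37.5 RPKM against 36.3 and 40.1, with overlapping groups. Sp100, a nuclear body protein, was at 129 and 117 RPKM against 152 and 157. Both CD4 Treg libraries lay below both CD49lo libraries, and it was not called (adjusted p = 0.0554). Rsad2, which encodes viperin, and Trim30a were not called either.

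Among the remaining 6 induced genes, Apol9b and Apol9a had the largest fold changes of all members, and their direction was set by the filter. Of these, Apol9b (chr15:77729121-77736381), an apolipoprotein L gene, was at 31.3 and 27.4 RPKM in CD4 Treg and at 0.0775 and 0.887 RPKM in CD49lo. That is 530 reads against 10, a ratio of 67.9 (95% exact binomial interval 36.6 to 142, which covers counting error only). Apol9a (chr15:77403789-77411080), its close copy, was at 8.66 and 9.75 RPKM in CD4 Treg and had 0 reads in the other 3 libraries. Against a floor of 3 reads over the group, its level was at least 69.6-fold higher in CD4 Treg than in CD49lo. The levels of these copies are given as a description, since the filter let them in through CD4 Treg. The copies share 16.5% of the 50-base words of Apol9a and 52.3% of those of Apol9b, so the split between them is uncertain. Ifi27l2a (chr12:103442167-103443680), a strongly interferon-induced gene, was at 661 and 379 RPKM in CD4 Treg against 187 and 182 in CD49lo, with a log2 fold change of 1.47 ± 0.22 (adjusted p = 0.00139). Ifi44, Ifi35 and Xaf1 were not called.

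**Figure D3:**
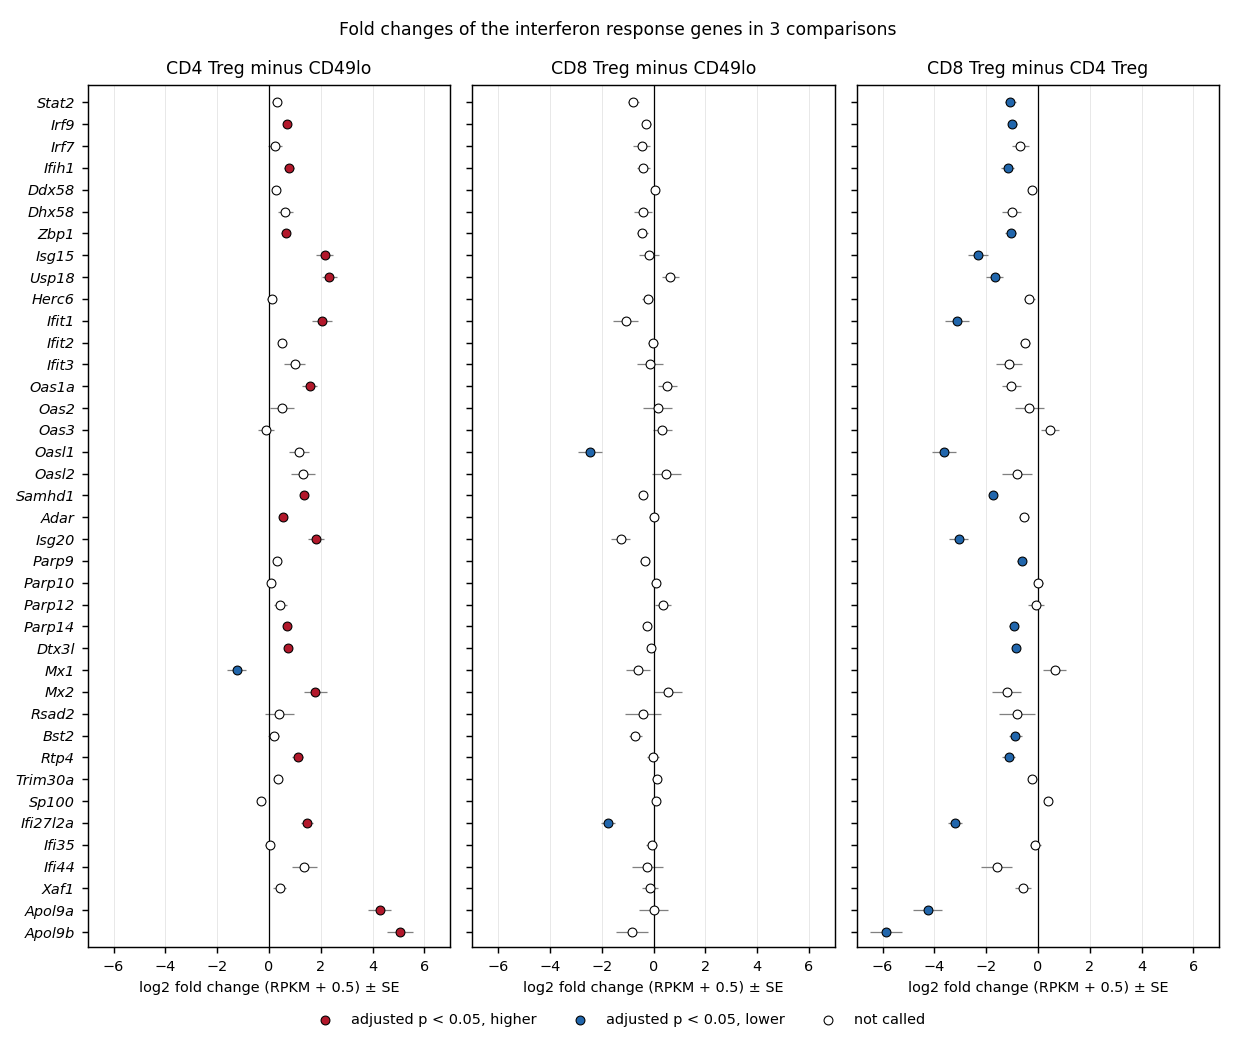
Log2 fold change of each member with its standard error in each of the 3 comparisons, on log2(RPKM + 0.5); filled points passed the limma test at an adjusted p under 0.05. CD4 Treg against CD49lo has 17 filled points above 0 and 1 below, and CD8 Treg against CD4 Treg has 18 filled points below 0 and 0 above.

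How many members were called depended on the replicates. Apol9a and Apol9b, where named below, are in the counts, and their direction was set by the filter in each fit that used it. Without CD4 Treg replicate 1, 6 members were higher (3.66% of all genes were), namely Samhd1, Usp18, Isg15, Apol9a, Apol9b and Ifi27l2a, and the median log2 fold change was 0.42 with 30 positive members. Without CD4 Treg replicate 2, 15 were higher (3.72% of all genes), 13 of the 17 with Oasl2 and Ifit3 added. Without CD49lo replicate 1, 2 were higher (Samhd1 and Apol9a, against 0.946% of all genes), and without CD49lo replicate 2, 3 were (Samhd1, Apol9a and Apol9b, against 0.923%), while the median log2 fold change was 0.59 and 0.82. Those fits have 1 residual degree of freedom, and the genes called overall were 2964 in all libraries and between 437 and 1457. With no filter on low values, over 21346 genes, Samhd1 and Apol9a were the members called, where 1.32% of all genes were higher.

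Markers listed for other cells also differed in this comparison. Their sums do not show which cells the transcripts came from. The summed level of 8 B cell markers was 61.5 and 62.4 RPKM in CD4 Treg and 904 and 984 RPKM in CD49lo, with 1 of 8 at 0 in each CD4 Treg library. For 7 monocyte or macrophage markers it was 12.4 and 7.83 against 302 and 362 RPKM, and for 5 NK cell markers 3.45 and 3.03 against 394 and 1764 RPKM. Most of the NK cell sum in CD49lo was Gzma, at 304 and 1580 RPKM. The 7 plasmacytoid dendritic cell markers summed to 38.3 and 39.9 RPKM against 76.8 and 75.9. Most of that difference was Irf8, at 6.18 and 7.73 RPKM against 38.4 and 40.9. Siglech was at 0.210 and 0 RPKM against 11.3 and 11.5. Not every marker in that list did the same: Pacsin1 was at 25.1 and 27.1 RPKM against 14.7 and 10.3. Ccr9, at 6.05 and 4.16 RPKM against 4.07 and 6.18, overlapped. Neutrophil markers (5) summed to 7.18 and 0 against 243 and 135 RPKM, dendritic cell markers (6) to 0.654 and 0.778 against 35.2 and 35.6, and red cell and platelet markers (6) to 15.8 and 3.03 against 29.2 and 66.6. Each of these sums was larger in CD49lo, the group with the lower median member level. The part of such cells in the members' levels was not tested. Jun, an immediate early gene, was at 114 and 101 RPKM in CD4 Treg and at 10.5 to 15.2 RPKM elsewhere.

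CD8 Treg against CD49lo compares the CD8 populations with each other. No member was higher in CD8 Treg (0 of 39, with 1.71% of all tested genes higher), and 2 of 39 (5.13%), Oasl1 and Ifi27l2a, were lower, where 3.59% of all genes were lower (limma). At an unadjusted p under 0.05 the counts were 0 higher and 7 lower, with 7.46% and 11.7% of all genes, and limma-voom on recovered reads gave 0 higher and 1 lower. CD8 Treg has 1 library, whose variation the fit takes to be that of the 2 other groups. The median log2 fold change was -0.18 for the members and -0.04 for all genes, with 12 members positive and 26 negative. In the CD8 Treg library the B cell markers summed to 452 RPKM, the monocyte or macrophage markers to 146, the NK cell markers to 210 and the plasmacytoid dendritic cell markers to 29.5, each below both CD49lo libraries. The NK cell markers differed among themselves. Gzma was at 56.4 RPKM against 304 and 1580 in CD49lo. Ncr1, at 18.8 RPKM against 5.28 and 7.03, and Eomes, at 82.4 against 57.0 and 55.2, were above both CD49lo libraries. Klre1 and Klrb1c lay between the CD49lo libraries. The neutrophil markers summed to 154, between the 2 CD49lo libraries. Their part in the members' levels was not tested. The CD8 Treg library lay below both CD49lo libraries for 22 members (56.4%, against 40.9% of all genes) and above both for 10 (25.6%, against 34.1%). On RPKM as printed these counts were 26 (66.7%, against 51.2%) and 5 (12.8%, against 24.5%).

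Oasl1 had 1 read in the CD8 Treg library (0.0755 RPKM) and 90 in the CD49lo libraries (2.52 and 3.07 RPKM), a ratio of 36.6 with a counting interval of 6.41 to 1463. Its log2 fold change was -2.47 ± 0.46 (n = 1 against 2, adjusted p = 0.0162). Ifi27l2a was at 49.4 RPKM against 187 and 182 RPKM, with -1.75 ± 0.28 (adjusted p = 0.00729). For both genes the CD8 Treg library was the lowest of the 5. The Ifi27l2a call was kept without either CD4 Treg replicate and lost without either CD49lo replicate, while the Oasl1 call was lost in each of the 4 fits that left out a library. Stat2, at 7.15 RPKM against 12.3 and 15.7, gave -0.78 ± 0.21 (adjusted p = 0.0654), and with no scaling factor Stat2 and Samhd1 were also called lower, when the median of all genes moved from -0.04 to -0.16. Isg15 (6.75 RPKM), Irf9 (24.2) and Irf7 (22.1) were not called, nor were Usp18, at 14.4 RPKM against 9.26 and 10.6, and Mx1, at 5.74 RPKM against 6.75 and 14.2.

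CD8 Treg against CD4 Treg compares the populations named regulatory. No member was higher in CD8 Treg (0 of 39, with 8.51% of all genes higher) and 18 (46.2%) were lower, where 8.35% of all genes were lower (limma). At an unadjusted p under 0.05, 1 member, Sp100, was higher and 23 were lower, with 15.1% and 14.5% of all genes, and limma-voom called Sp100 higher too. The median log2 fold change was -0.94 for the members and 0.02 for all genes, and 35 of 39 were negative. The CD8 Treg library lay below both CD4 Treg libraries for 32 members (82.1%, against 39.3% of all genes) and above both for 2, Mx1 and Sp100 (5.13%, against 42.1%). On RPKM as printed it lay below both for 35 members (89.7%, against 45.7%). Without Apol9a and Apol9b, 16 of 37 (43.2%) were called lower. Both genes are also among the 35 negative members and in the counts of 32 and 35 by library order. This comparison uses the same CD4 Treg libraries as the first, so its counts are not a separate observation of them.

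By role, the called members were Stat2 and Irf9 of the transcription factors, Ifih1 and Zbp1 of the sensors, Isg15 and Usp18, Ifit1, Oasl1, Samhd1 and Isg20, Parp9, Parp14 and Dtx3l, Bst2 and Rtp4, and Ifi27l2a, Apol9a and Apol9b. Stat2 stood at 7.15 RPKM in CD8 Treg and had a log2 fold change of -1.08 ± 0.21 (adjusted p = 0.0068), while Irf9, at 24.2 RPKM, gave -0.99 ± 0.17 (adjusted p = 0.00425). Ifit1 was at 3.41 RPKM, with -3.12 ± 0.47 (adjusted p = 0.002), and Isg20 at 3.48 RPKM, with -3.07 ± 0.36 (adjusted p = 0.0005). Isg15 gave -2.33 ± 0.39 (adjusted p = 0.00342) and Usp18 -1.68 ± 0.34 (adjusted p = 0.00853). Each of these values was below both CD4 Treg libraries. The CD8 Treg levels of the other called members were 3.31 RPKM for Ifih1, 23.5 for Zbp1, 23.7 for Parp14, 34.9 for Dtx3l and 10.2 for Rtp4, and those also lay below both CD4 Treg libraries. Oas1a (6.11 RPKM), Adar (29.2) and Mx2 (0.997), called higher in CD4 Treg than in CD49lo, were not called between CD8 Treg and CD4 Treg.

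Samhd1, at 89.3 RPKM in CD8 Treg, had a log2 fold change of -1.75 ± 0.11 (adjusted p = 1.62e-05), while Ifi27l2a, at 49.4 RPKM, had -3.22 ± 0.28 (adjusted p = 8.02e-05). Oasl1, Apol9a and Apol9b had 1, 0 and 0 reads in CD8 Treg. Oasl1 had 176 in CD4 Treg, a ratio of 91.8 with a counting interval of 16.3 to 3646. Apol9b was at least 92.1-fold and Apol9a at least 28.3-fold lower in CD8 Treg, against a floor of 3 reads. The direction of Apol9a and Apol9b was set by the filter, here and in the counts below that left out a library. The levels of Parp9, a partner of DTX3L, were 31.7 and 26.3 RPKM in CD4 Treg, 23.9 and 23.8 in CD49lo and 17.0 in CD8 Treg. Parp9 and Bst2 (21.1 RPKM) had log2 fold changes of -0.64 ± 0.17 (adjusted p = 0.0334) and -0.88 ± 0.25 (adjusted p = 0.0413). Without CD4 Treg replicate 1, 8 members were called lower: Samhd1, Parp14, Ifit1, Isg20, Oasl1, Apol9a, Apol9b and Ifi27l2a (3.41% of all genes were lower in that fit). Without CD49lo replicate 1 it was Samhd1 (0.326% of all genes), and without CD49lo replicate 2 it was Samhd1, Apol9a and Apol9b (0.846%). With no filter it was Samhd1, Oasl1 and Apol9a (1.85%). Without CD4 Treg replicate 2 it was 17 (3.25%), among them Irf7 (adjusted p = 0.0355).

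The CD4 Treg replicates differed from each other in these genes. Replicate 1 was above replicate 2 for 38 of 39 members (97.4%), all but Apol9a, where 49.0% of all tested genes were above. The excess was over 1.5-fold for 15 members (38.5%, against 7.84% of all genes), and no member was over 1.5-fold higher in replicate 2. The median log2 ratio of replicate 1 to replicate 2 was 0.38 for the members, with a range of -0.15 to 1.95, and 0 for all genes. For 23 genes regulated by interferon-gamma, guanylate-binding proteins among them, the same median was 0.03 and none of them was over 1.5-fold. For 53 tested genes of a list of other interferon-stimulated genes it was 0.23, and 11 were over 1.5-fold.

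The ratio of read shares between the CD4 Treg replicates ranged widely among members. Rsad2 gave 5.78 (95% exact binomial interval 3.45 to 10.3) and Ifit3 3.06 (2.62 to 3.60). Ifit1 gave 2.30 (2.03 to 2.61), Irf7 1.94 (1.71 to 2.22), Usp18 1.91 (1.68 to 2.17) and Ifi27l2a 1.74 (1.61 to 1.88). These intervals cover counting error only and do not reach 1. By contrast, Samhd1 gave 1.01 (0.975 to 1.04), Ifit2 1.10 (0.981 to 1.24), Apol9b 1.14 (0.960 to 1.36) and Apol9a 0.888 (0.645 to 1.22). The cause of the difference between replicates was not tested. In CD49lo, replicate 2 was above replicate 1 for 29 of 39 members (74.4%, against 47.7% of all genes), with 5 over 1.5-fold (12.8%, against 9.38% of all genes).

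**Figure D4:**
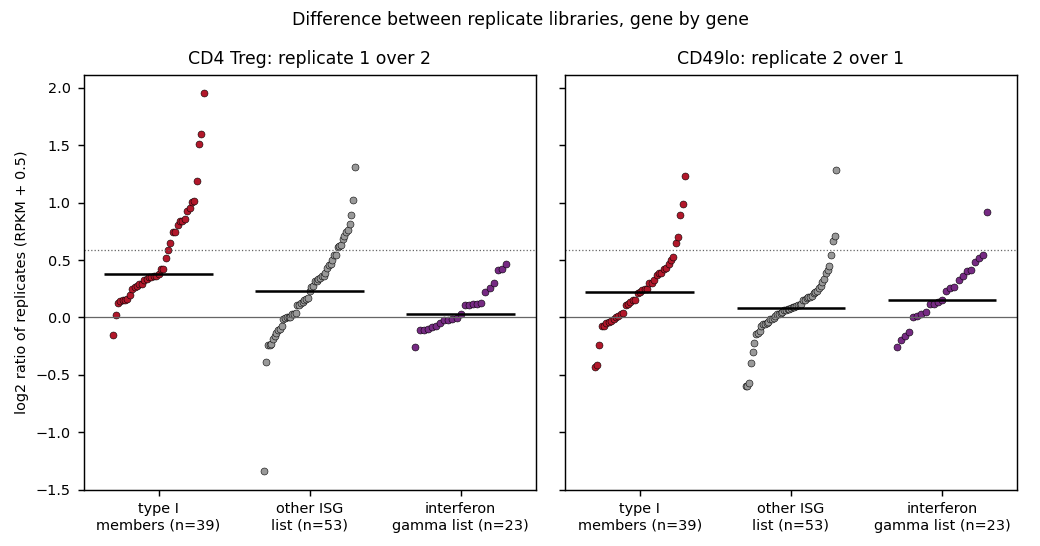
Log2 ratio between replicate libraries on log2(RPKM + 0.5), CD4 Treg replicate 1 over 2 on the left and CD49lo replicate 2 over 1 on the right, with a point per gene, a bar at each list's median and a dotted line at 1.5-fold. On the left the members' median is 0.38 and that of the interferon-gamma list is 0.03; on the right they are 0.22 and 0.15.

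The ISRE core occurred in called and uncalled members. It was found in 6 of 11 promoters of members higher in CD4 Treg than in CD49lo and in 7 of 17 of the others. Among members over 1.5-fold higher in CD4 Treg replicate 1 it was found in 5 of 9 promoters, and among the rest in 8 of 19. Apol9a and Apol9b are counted in the 6 and in the 8. Their direction was set by the filter, and their promoters were identical over 278 of 278 bases. No difference between these shares was tested. Ifih1, Isg15, Ifit1, Oas1a, Apol9a and Apol9b, all called higher, carry the element, while Samhd1, Isg20, Irf9, Adar and Dtx3l do not in this window.

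Upstream of the members, transcripts of the ligands other than Ifng were nearly absent. Of 19 ligand genes searched, Ifng, the single type II interferon, passed the filter. Among the rest, Ifnab had the most reads in a library, 6 in CD4 Treg replicate 2 (1.04 RPKM). Between 17 and 18 of the 19 had 0 reads in each library, Ifnb1 in all 5. Ifng was at 1.60 and 1.37 RPKM in CD4 Treg, 5.18 in the CD8 Treg library and 11.8 and 31.4 in CD49lo, with a log2 fold change of -3.29 ± 0.45 (adjusted p = 0.000718) for CD4 Treg against CD49lo. CD4 Treg was thus the low group for Ifng. The interferon that reached the cells was not measured, and its part in the members' levels was not tested.

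Of 7 receptor chains and kinases, 3 were higher in CD4 Treg than in CD49lo and none was lower, where 9.45% of all tested genes were higher and 12.8% lower. Ifnar1 was at 46.1 and 46.5 RPKM in CD4 Treg, 35.5 in the CD8 Treg library and 30.0 and 35.2 in CD49lo, with a log2 fold change of 0.53 ± 0.12 (adjusted p = 0.0106). Ifnar2, at 21.6 to 26.5 RPKM across libraries, was not called in any comparison.

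The interferon-gamma receptor chain Ifngr2 was at 17.2 and 16.2 RPKM in CD4 Treg, 7.36 and 6.13 RPKM in CD49lo and 2.58 RPKM in CD8 Treg. The groups did not overlap, with log2 fold changes of 1.28 ± 0.20 (adjusted p = 0.00158) for CD4 Treg and -1.11 ± 0.25 (adjusted p = 0.0331) for CD8 Treg against CD49lo. Ifngr1 was at 180 and 175 RPKM in CD4 Treg, 173 in the CD8 Treg library and 109 and 145 in CD49lo, and was higher in CD4 Treg than in CD49lo (0.52 ± 0.13, adjusted p = 0.0197). Jak1 was higher in CD8 Treg (294 RPKM) than in CD4 Treg (218 and 236 RPKM), by 0.48 ± 0.11 (adjusted p = 0.0187). Jak2, at 28.9 to 42.4 RPKM, and Tyk2, at 15.7 to 27.5 RPKM, were not called.

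**Figure D5:**
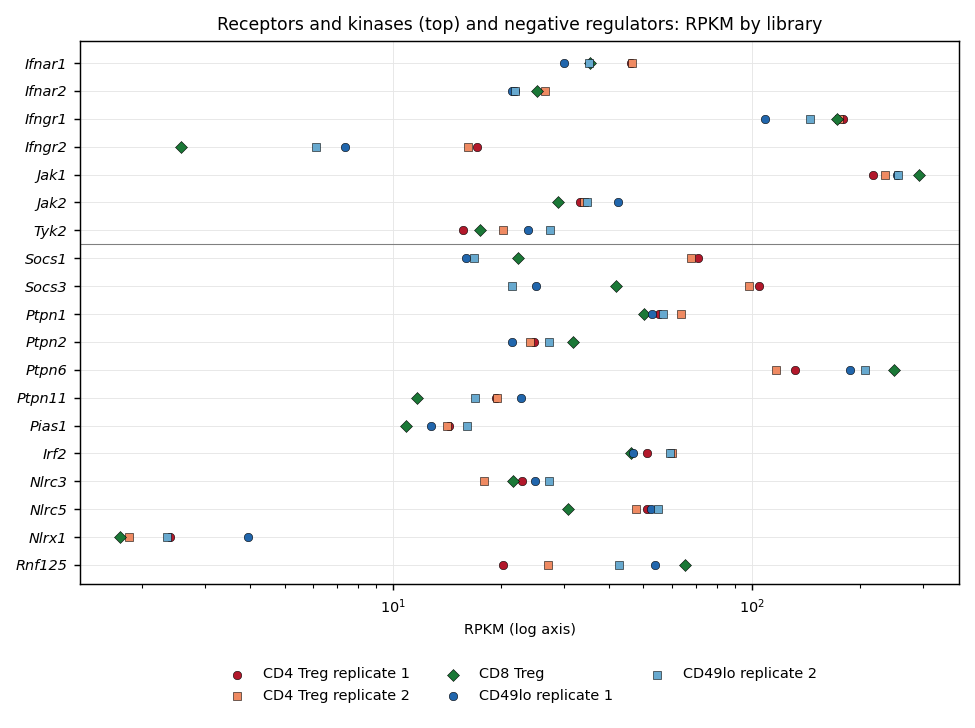
Levels of 7 receptor chains and kinases (top) and 12 negative regulators in each of the 5 libraries, in RPKM on a log axis. Ifngr2 is lowest in the CD8 Treg library, and Ifnar2 spans 21.6 to 26.5 RPKM.

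Of 12 negative regulators, 2 were higher and 2 lower in CD4 Treg than in CD49lo (16.7% each, against 9.45% and 12.8% of all genes). Socs1, an inhibitor of JAK kinases, was at 71.0 and 67.8 RPKM in CD4 Treg, 22.4 in the CD8 Treg library and 16.0 and 16.9 in CD49lo, with a log2 fold change of 2.07 ± 0.16 (adjusted p = 3.02e-05). Socs3, of the same family, was at 105 and 98.2, 41.8, and 25.0 and 21.5 RPKM, with 2.13 ± 0.13 (adjusted p = 7.07e-06), and was also higher in CD8 Treg than in CD49lo (0.97 ± 0.16, adjusted p = 0.0093). The lower genes were Ptpn6, the phosphatase SHP-1, at -0.63 ± 0.11 (adjusted p = 0.00239), and Rnf125, a ubiquitin ligase for RIG-I, at -0.99 ± 0.19 (adjusted p = 0.00535). Of 17 further sensors and adaptors, 2 were higher (11.8%) and 4 lower (23.5%), against the same 9.45% and 12.8%. Tmem173, which encodes the DNA-sensing adaptor STING, was at 91.9 and 96.0 RPKM in CD4 Treg, 29.3 in the CD8 Treg library and 44.7 and 37.9 in CD49lo (1.21 ± 0.13, adjusted p = 0.00018). Tlr9, the endosomal DNA receptor, and Irf8 were lower (-2.99 ± 0.40, adjusted p = 0.00061, and -2.41 ± 0.16, adjusted p = 1.07e-05). Both are also expressed by B cells and plasmacytoid dendritic cells. Irf8 is itself among the plasmacytoid dendritic cell markers summed above, so that sum is no separate observation of Irf8. The part of such cells in these levels was not tested.

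The list of 23 interferon-gamma regulated genes had 15 genes higher (65.2%, against 9.45% of all genes) and 2 lower (8.70%, against 12.8%) in CD4 Treg than in CD49lo. In CD8 Treg against CD4 Treg, 2 were higher (8.70%, against 8.51%) and 15 lower (65.2%, against 8.35%). The median log2 fold changes were 0.65 and -0.86. Iigp1, an immunity-related GTPase, was at 44.0 and 44.4 RPKM in CD4 Treg, 2.37 in the CD8 Treg library and 6.56 and 9.81 in CD49lo (2.41 ± 0.20, adjusted p = 3.9e-05, against CD49lo), and the guanylate-binding protein gene Gbp6 was at 61.7 and 50.4, 9.92, and 13.4 and 16.5 RPKM (1.90 ± 0.15, adjusted p = 3.13e-05). Ciita, the class II transactivator also active in B cells, went the other way, at 0.0614 and 0.105 RPKM in CD4 Treg and 16.7 and 15.6 in CD49lo. Of 53 tested other interferon-stimulated genes, 15 were higher (28.3%, against 9.45% of all genes) and 8 lower (15.1%, against 12.8%) in CD4 Treg than in CD49lo. Slfn5, a Schlafen family gene, was at 68.6 and 44.4 RPKM in CD4 Treg, 8.96 in the CD8 Treg library and 14.6 and 14.8 in CD49lo (1.90 ± 0.19, adjusted p = 0.000126). Epsti1 was at 172 and 160, 365, and 446 and 486 RPKM, and its difference between CD4 Treg and CD49lo was -1.46 ± 0.10 on the log2 scale (adjusted p = 1.22e-05). Ms4a4c was lower in CD4 Treg than in CD49lo (-1.84 ± 0.18, adjusted p = 0.00011) and higher in CD8 Treg than in CD49lo (1.23 ± 0.22, adjusted p = 0.0137).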

How the data were processed

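The authors deposited RPKM values (reads scaled by transcript length and library size) for 35275 genes in 5 libraries. CASAVA, STAR and the build mm10 are named, per the submitters' processing notes; the counter, annotation version and read length are not given in the sources used here. All values gave whole reads within 0.02 once multiplied by gene length and divided by the value of 1 read, and these recovered reads set the depth and a filter (the equivalent of 10 reads at median depth in at least 1 library, and 15 reads in all), which left 13298 genes. Values were scaled by trimmed-mean factors and tested as log2(RPKM + 0.5) with limma 3.58.1 in R 4.3.3, over all 5 libraries in 3 groups (2 residual degrees of freedom), with a variance prior following mean abundance and Benjamini-Hochberg adjustment over all tested genes. Members called in any comparison, and always Stat2, Irf9, Irf7, Isg15, Usp18 and Mx1, were given by library. From the other lists, all receptor and kinase genes and up to 6 called genes with the smallest p were eligible; Ube2l6, Ciita and the uncalled members with values were singled out after their values were seen. One gene first listed with the receptors and kinases is not reported here and not in the count of 7. The members and lists were chosen with earlier results of these data known. Alternatives covered the added value, filter, scaling, prior, limma-voom, each replicate left out and a replicate block; library order on unscaled RPKM and counts without Apol9a and Apol9b were added after seeing the data.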

Additional observations from a re-analysis of the deposited data

How the results depend on the processing

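The depth of these libraries limits members near the 3-read floor, chiefly Apol9a, Apol9b and Oasl1 outside CD4 Treg. Called counts moved most with the low-value filter and with single libraries. Those fits hold more genes or fewer samples, and the cause of the change was not tested. The member counts below include Apol9a and Apol9b where they were called, and the filter set their direction in each fit that used it. Genes called numbered 2964 between CD4 Treg and CD49lo, 705 between the CD8 populations and 2241 between CD8 Treg and CD4 Treg. Leaving out 1 replicate at a time gave 437 to 1457, 0 to 199 and 155 to 967. Members higher in CD4 Treg than CD49lo were then 2 to 15, of which 2 to 13 were among the 17, and members lower 0; members lower in CD8 Treg were 0 to 1 against CD49lo and 1 to 17 against CD4 Treg. With no filter, 704 and 1277 genes were called in the comparisons with CD4 Treg, members higher in CD4 Treg than CD49lo were 2 and lower 0, and members lower in CD8 Treg were 0 against CD49lo and 3 against CD4 Treg. An added value of 1 and a prior on RPKM each left 0 members lower in CD4 Treg than CD49lo, and the latter called 365 genes between the CD8 populations. No scaling, limma-voom, the replicate block and the fit of 4 libraries each left 2 lower, Sp100 joining Mx1. In those fits 11.8% to 16.7% of all genes were lower. In CD8 Treg against CD49lo, no scaling gave 4 members lower and limma-voom 1, where 4.93% and 2.55% of all genes were lower. In CD8 Treg against CD4 Treg, median-of-ratios scaling and limma-voom gave 1 member higher, Sp100, where 8.72% and 7.32% of all genes were higher. The share of higher calls between the CD8 populations was 20.6% with no scaling, 50.8% with limma-voom and 85.2% with no filter. Of 68 named fold changes, 5 that were not called reversed in at least 1 refit. Over the fits that left out a replicate, CD4 Treg against CD49lo gave -0.25 to 0.72 for Irf7 and -0.0027 to 0.36 for Bst2, both negative without CD4 Treg replicate 1. CD8 Treg against CD49lo gave -0.43 to 0.066 for Isg15, positive without CD49lo replicate 2, and -0.16 to 0.16 for Adar and -0.22 to 0.021 for Dtx3l, whose signs changed without CD49lo replicate 1. Adar was also negative there with no scaling (-0.13). The replicate block tested 12014 genes, as did the fit of 4 libraries. It called 3577 genes and 26 members in CD4 Treg against CD49lo, where 13.1% of all genes were higher and 16.7% lower. The replicate numbers are not shown to pair the libraries: the deviations of same-numbered libraries correlated at r = -0.0202 across 13298 genes.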
